A study of Homo sapiens with 36 samples.

Results

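The clustered protocadherin locus on human chromosome 5 was examined in CTCF chromatin immunoprecipitation and sequencing (ChIP-seq) data from HEK293T, a human embryonic kidney cell line. The locus was taken as chr5:140100000-141000000 in hg19, a window of 900 kb, and its members were all peaks of 6 pooled CTCF peak lists that overlapped the window. There were 143 such peaks of 179333 in all, and merging those that overlapped or touched gave 47 regions of 54382. The series held 36 samples in 12 groups: 3 CTCF immunoprecipitates and 3 inputs for each of 6 conditions. Cells received a control small interfering RNA (siNC) or one aimed at MBD2, MBD3, CHD3, CHD4 or CHD5 (siMBD2, siMBD3, siCHD3, siCHD4, siCHD5), and no other treatment or allele is named in the labels. All conditions share this 1 cell line, and whether replicates are separate transfections is not stated. The authors called the 3 replicates of a condition together. Each condition is therefore 1 list without a measure of replicate spread, and conditions are set side by side with no test. The level of each targeted protein or transcript was not analysed here.

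Clustered protocadherins are cell-surface adhesion proteins that give neurons an individual surface identity. The genes lie in 3 tandem clusters, alpha, beta and gamma. In the alpha and gamma clusters each variable first exon has its own promoter and is spliced to shared constant exons. CTCF binds many of these promoters and distal enhancers of the locus, and together with cohesin it loops a promoter to an enhancer, so that CTCF binding is part of promoter choice. The last variable exons of the alpha and gamma clusters, named C-type (PCDHAC1, PCDHAC2, PCDHGC3, PCDHGC4 and PCDHGC5), are expressed more broadly and differ in regulation from the others. CHD3, CHD4 and CHD5 are ATPases with a helicase-like domain, and MBD2 and MBD3 are methyl-CpG-binding-domain proteins. All 5 are known as subunits of NuRD complexes, which move nucleosomes and remove histone acetyl groups.

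In the RefSeq gene table, the order along chromosome 5 is HARS1, HARS2 and ZMAT2, then PCDHA1 to PCDHA13 with PCDHAC1 and PCDHAC2, then PCDHB1 to PCDHB15, then SLC25A2 and TAF7, then PCDHGA1 to PCDHGC5, then DIAPH1 and HDAC3. HARS1 and HARS2 encode histidyl-tRNA synthetases, TAF7 a subunit of the general transcription factor TFIID, DIAPH1 a formin that nucleates actin and HDAC3 a histone deacetylase. Gene positions of the hg19 build were not used here, so no peak is assigned to a gene. Which regions lie at PCDHAC1, PCDHAC2, PCDHGC3, PCDHGC4 or PCDHGC5 was not analysed here.

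The promoters that CTCF could choose among share short sequence elements within each cluster. RefSeq promoter sequences (GRCh38.p14, 250 bases before to 50 after the gene start, forward strand) were found for 47 of 53 clustered protocadherin genes. The letters CGCT are the core of an element known to be conserved in many of these promoters. They were present on either strand in 46 of these 47 genes (97.9%), against 70% of all 35116 promoter entries of the same length. Letters this short are common, and finding them does not show that the element is present. The most common 10-base stretch holding CGCT was TGATGTCGCT in the alpha genes (8 of 11), GGTGGCGCTG in the beta genes (12 of 14) and GCGCCGCTGT in the gamma A and B genes (9 of 18). Counting both strands, these stretches occurred in 0.0342%, 0.276% and 0.131% of all promoter entries, respectively. They were picked as the most common after the sequences had been read, and genes of 1 cluster are paralogs that share sequence by descent. None of the 3 stretches was found in the promoters of PCDHAC1, PCDHAC2, PCDHGC3 or PCDHGC4. The first 3 genes of each cluster that hold its stretch with 15 bases on each side before the gene start are shown, with the stretch in capitals, to display what neighbouring promoters of the locus have in common:
PCDHA1 (chr5:140786081-140786120): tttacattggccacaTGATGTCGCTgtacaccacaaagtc
PCDHA2 (chr5:140794776-140794815): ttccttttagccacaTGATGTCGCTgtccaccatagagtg
PCDHA4 (chr5:140806974-140807013): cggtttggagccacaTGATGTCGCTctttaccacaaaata
PCDHB2 (chr5:141094540-141094579): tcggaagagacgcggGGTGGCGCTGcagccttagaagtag
PCDHB3 (chr5:141100389-141100428): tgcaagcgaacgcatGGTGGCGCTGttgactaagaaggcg
PCDHB4 (chr5:141121719-141121758): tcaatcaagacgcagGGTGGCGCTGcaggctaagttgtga
PCDHGA1 (chr5:141330400-141330439): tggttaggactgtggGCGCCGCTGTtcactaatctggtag
PCDHGB1 (chr5:141350022-141350061): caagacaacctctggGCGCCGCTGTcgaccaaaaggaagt
PCDHGA7 (chr5:141382646-141382685): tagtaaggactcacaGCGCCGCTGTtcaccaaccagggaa

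The stretch begins 44 bases before the gene start in PCDHA1, 60 in PCDHB2 and 99 in PCDHGA1. Over all genes that hold it, it begins a median of 57.5 bases before the start in the alpha genes, 65.5 in the beta genes and 69 in the gamma genes. A CTCF core pattern of 12 bases, 8 of them fixed, was searched for on either strand and found in PCDHB9 alone of the 47 genes (2.13%), against 2.41% of all promoter entries. The same pattern with 7 fixed bases was likewise found in PCDHB9 alone (2.13%), against 10.6% of all entries. The looser pattern includes the stricter one, and either may share bases with CGCT. A pattern that is not found says only that these letters are not in this window. It does not show that CTCF has no site there.

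The 4 C-type promoters with a sequence differ in base composition from the others of the locus. Their GC content over 300 bases was 66% in PCDHAC1, 63% in PCDHAC2, 59% in PCDHGC3 and 60.7% in PCDHGC4. The alpha promoters ranged from 33.7% to 40.3%, the beta promoters from 33.3% to 46.3% and the gamma A and B promoters from 32.3% to 51.3%, so these groups do not overlap the C-type genes. The median of all promoter entries was 58.7%. The 250 bases before each C-type start are shown with CGCT, read on either strand, in capitals, because these are the genes whose promoters stand apart in the locus:
PCDHAC1 (chr5:140926049-140926298): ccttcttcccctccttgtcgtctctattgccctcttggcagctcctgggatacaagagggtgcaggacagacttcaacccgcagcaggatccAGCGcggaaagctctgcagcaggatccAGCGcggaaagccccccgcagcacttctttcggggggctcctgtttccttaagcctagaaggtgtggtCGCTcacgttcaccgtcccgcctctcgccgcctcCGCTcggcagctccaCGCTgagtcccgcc
PCDHAC2 (chr5:140966226-140966475): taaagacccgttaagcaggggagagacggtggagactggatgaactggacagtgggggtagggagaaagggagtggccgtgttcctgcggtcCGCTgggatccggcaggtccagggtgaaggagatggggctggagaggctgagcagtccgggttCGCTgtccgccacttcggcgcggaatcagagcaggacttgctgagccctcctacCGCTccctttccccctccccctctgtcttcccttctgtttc
PCDHGC3 (chr5:141475716-141475965): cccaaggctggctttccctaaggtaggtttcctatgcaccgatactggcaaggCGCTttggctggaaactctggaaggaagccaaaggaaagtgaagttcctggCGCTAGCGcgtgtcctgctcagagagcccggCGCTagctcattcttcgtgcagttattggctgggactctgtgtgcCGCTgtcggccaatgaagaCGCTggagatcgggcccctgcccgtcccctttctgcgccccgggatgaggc
PCDHGC4 (chr5:141484780-141485029): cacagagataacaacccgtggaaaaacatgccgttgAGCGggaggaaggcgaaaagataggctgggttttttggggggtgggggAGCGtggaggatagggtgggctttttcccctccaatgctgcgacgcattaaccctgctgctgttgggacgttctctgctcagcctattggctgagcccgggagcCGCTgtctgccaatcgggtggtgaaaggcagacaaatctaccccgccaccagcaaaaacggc

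In these 250 bases CGCT occurs 5 times in PCDHAC1, 3 in PCDHAC2, 6 in PCDHGC3 and 3 in PCDHGC4, counting both strands. These are matches of the letters alone, and whether any of them is the conserved element was not analysed here. Coordinates of the printed promoters are GRCh38.p14 and cannot be set against the hg19 positions of the peaks below.

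In control cells the locus was dense in CTCF peaks, and the median peak there rested on fewer fragments than that of the whole list. The siNC list held 40 peaks in the window, 44.4 per Mb. Of 3381 consecutive stretches of 900 kb along the genome, 13 (0.385%) held as many, and the median stretch held 10. Neighbouring summits in the window lay a median of 11910 bp apart, against 39846 bp over the whole siNC list. Each peak's fold enrichment over local background and its −log10 q, the significance of the call after adjustment, are the values of the authors' peak caller. The median fold was 5.70 in the window and 5.22 in the list. The median −log10 q was 13.8 in the window and 22.3 in the list. The number of fragments over the summit, solved from the fold and p that the authors give, had a median of 33.5 in the window and 59 in the list. The local background was also low, with a median of 5.15 fragments in the window and 10.3 in the list.

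The 47 regions were unevenly spaced. They are numbered 1 to 47 from the start of the window. The longest stretch with no peak in any list was 171 kb (chr5:140249318-140420738), followed by 81.7 kb (chr5:140810178-140891899), 73.3 kb (chr5:140625054-140698314) and 71.8 kb (chr5:140480154-140551952). These 4 gaps, picked after the positions were seen, leave 5 groups of regions: 1 to 11, 12 to 15, 16 to 23, 24 to 38 and 39 to 47. The siNC list held 9, 4, 7, 12 and 8 peaks in them. The median siNC −log10 q was highest in regions 39 to 47, at 34.1. The medians of the other groups were 12.4, 18.5, 13.7 and 15.4 in the same order. By fold the last group did not lead: the medians of the 5 groups were 4.89, 5.62, 5.71, 6.12 and 5.79. Their median summit counts were 30.0, 40.5, 33.0, 33.5 and 87.0 fragments.

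**Figure D1:**
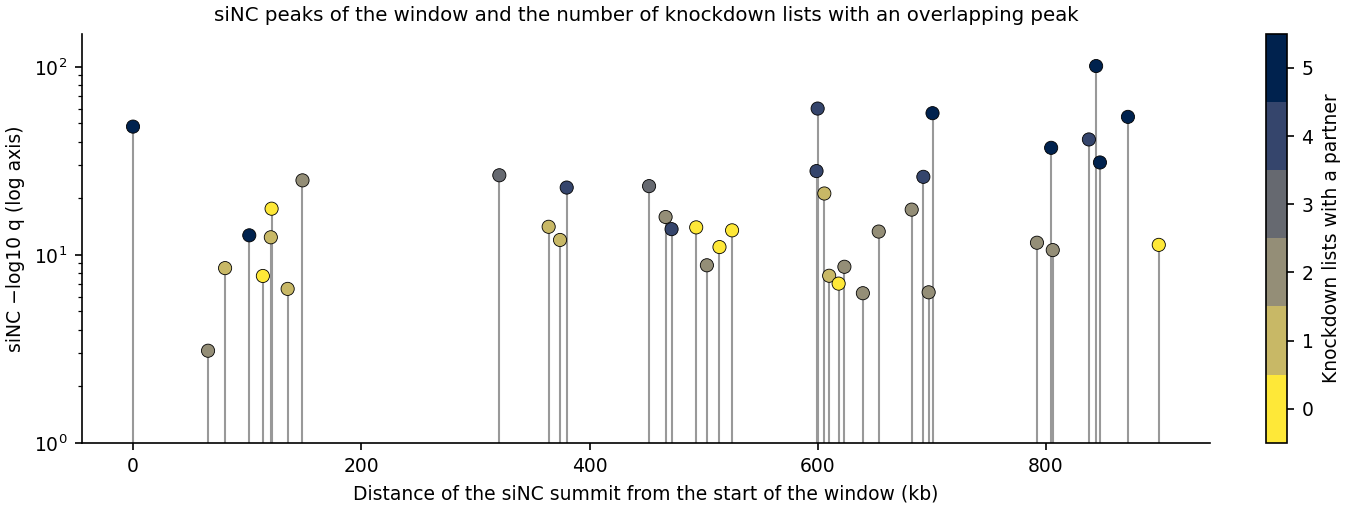
Each stem is 1 of the 40 siNC peaks of the window, with its summit's distance from the window start in kb on the x axis and its −log10 q on a log y axis. The colour gives the number of the 5 knockdown lists with an overlapping peak: the peak of highest −log10 q, 101, has a partner in all 5, and the 7 peaks with no partner lie between 7.03 and 17.6.

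The strongest control peak by −log10 q lay in region 44 (chr5:140943655-140944183), with a fold of 9.22 and a −log10 q of 101. By fold, the leading siNC peak was the second peak of region 24 (chr5:140699650-140700224, fold 9.44, −log10 q 60.0), followed by region 10 (chr5:140248289-140248652, fold 9.29), region 44, region 35 (chr5:140792331-140792642, fold 8.19) and region 15 (chr5:140479843-140480138, fold 8.15). The next 5 were region 37 (8.10), region 8 (7.83), the first peak of region 24 (7.03), region 18 (6.82) and region 17 (6.46). These 10 peaks lie in all 5 groups but regions 39 to 47 supply only 1 of them. At the edges of the window lay region 1 (chr5:140099801-140100104), whose summit fell outside the window in all 6 lists, and region 47 (chr5:140998712-140998959).

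Depth differed between the lists, and reads per sample are not given in these sources. The lowest local background found in a list stands in for its depth, since it grows with the number and length of the fragments. It was 2.96 fragments in siNC, 0.374 in siMBD3, 0.445 in siCHD3, 0.640 in siMBD2, 1.06 in siCHD4 and 1.95 in siCHD5. In all 6 lists the median local background of the window's peaks was below that of the whole list. The window held 31 peaks in siCHD5, 21 in siMBD2, 18 in siCHD4, 17 in siCHD3 and 16 in siMBD3. As a share of each list, the window held 0.11% of siNC peaks, 0.0986% in siCHD5, 0.0805% in siMBD2, 0.0710% in siCHD4, 0.0619% in siMBD3 and 0.0495% in siCHD3.

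**Figure D2:**
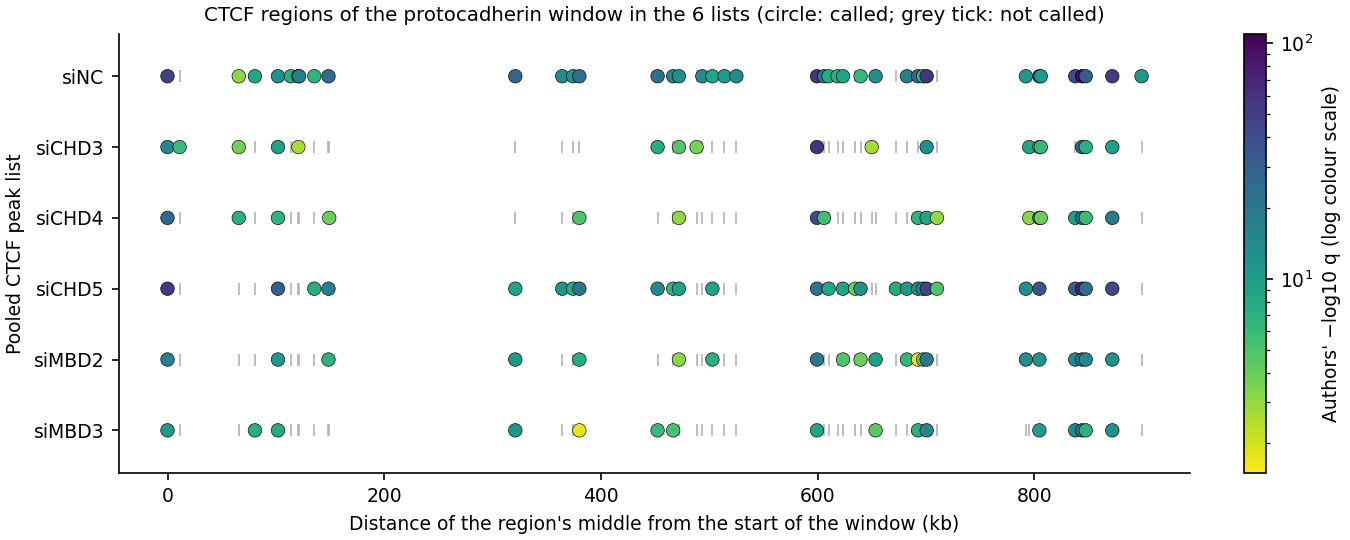
The 47 merged regions are placed by the distance of their middle from the window start in kb (x axis) in each of the 6 lists (y axis). A circle is a called region coloured by −log10 q and a grey tick a region not called there, so that 8 columns are filled in all 6 lists and the 171 kb gap is empty in each.

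Regions called in all 6 lists numbered 8 of 47 (17%), against 21.7% of all 54382 regions. They were regions 1, 5, 24, 37, 41, 44, 45 and 46, and 4 of these lie in the last group. None lay among regions 12 to 23. Fold enrichment ranks peaks within 1 list only, so the folds below are set side by side and are not differences between conditions.

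Region 44 (chr5:140943655-140944183) had folds of 9.22 in siNC, 7.44 in siMBD2, 9.39 in siMBD3, 12.2 in siCHD3, 6.74 in siCHD4 and 9.68 in siCHD5. It stood above the median fold of each list, from percentile 66.6 in siMBD2 to percentile 95.7 in siNC. Its 6 summits lay within 23 bp of each other.

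Region 1 (chr5:140099801-140100104) had folds of 6.34 in siNC, 9.04 in siMBD2, 6.97 in siMBD3, 9.77 in siCHD3, 9.02 in siCHD4 and 10.6 in siCHD5. It had the second highest fold of the window in siCHD4 and siCHD5. Its summits spanned 54 bp, all of them just before the window start.

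Region 37 (chr5:140800370-140800707) had folds of 8.10 in siNC, 9.22 in siMBD2, 8.81 in siMBD3, 7.27 in siCHD3, 4.34 in siCHD4 and 9.86 in siCHD5. Its percentile by fold was 28.0 in siCHD4 and between 66.2 and 91.2 in the other 5 lists. Its summits lay within 30 bp.

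Region 5 (chr5:140201709-140202133) was the only region of the first group besides region 1 to be called throughout. Its folds were 4.54 in siNC, 8.54 in siMBD2, 7.24 in siMBD3, 7.88 in siCHD3, 5.39 in siCHD4 and 12.5 in siCHD5. In siCHD5 this was the highest fold of the window, and in siNC it stood at percentile 33.3 of the list. With a siNC −log10 q of 12.7 and 39 fragments over the summit, it was the weakest siNC peak of the window with a partner in all 5 knockdown lists.

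Regions 41, 45 and 46 had siNC folds between percentiles 55.4 and 72.2 of the list. In the knockdown lists region 41 stood between percentiles 29.9 (siCHD3) and 80.7 (siCHD4), region 45 between 14 (siCHD4) and 65.2 (siMBD2), and region 46 between 36.3 (siMBD2) and 66.1 (siCHD5). Region 41 (chr5:140904257-140904733) ranged from 5.17 in siCHD3 to 7.34 in siCHD5, with 5.53 in siNC. Region 45 (chr5:140947038-140947486) ranged from 3.84 in siCHD4 to 7.38 in siMBD2, with 5.45 in siNC. Region 46 (chr5:140971650-140972010) ranged from 5.51 in siCHD4 to 7.57 in siCHD5, with 6.30 in siNC. The summits of each spanned 34, 41 and 24 bp.

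Region 24 (chr5:140698315-140700224) was the widest of the locus, at 1910 bp, and the only one with several summits in several lists. In siNC it was made up of 2 peaks with 3 summits, 100, 593 and 1570 bp from its start, and folds of 3.52, 7.03 and 9.44. The siCHD3 list had 1 peak of 1786 bp with summits at 103, 598 and 1572 bp and folds of 20.7, 24.4 and 11.7. The siCHD4 list had 1 peak of 1910 bp with summits at 102, 620, 982 and 1594 bp and folds of 11.1, 13.4, 9.57 and 4.66. In siCHD5 there were 3 separate peaks with folds of 3.8, 2.85 and 5.77. The siMBD2 list had only the last summit (1585 bp, fold 9.89), and the siMBD3 list only the first pair (104 and 588 bp, folds of 5.42 and 7.04). The order of the summits by fold therefore differed: the last was highest in siNC and siCHD5, and the middle one (588 to 620 bp) was highest in siCHD3, siCHD4 and siMBD3. The region gave the highest fold of the window in siNC, siCHD3, siCHD4 and siMBD2, at percentiles 96.3, 97.4, 96.8 and 92.2 of these lists. In siCHD5 and siMBD3 it stood at percentiles 36.5 and 56.3. With 1 list per condition, this difference in shape has no replicate check.

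Another 4 regions were called in 5 lists. Region 43 (chr5:140937448-140937764) had a siNC fold of 6.24 and a −log10 q of 41.1, and it lacked a peak in siCHD3 alone. Its folds were 7.94 in siMBD2, 8.98 in siMBD3, 5.02 in siCHD4 and 7.08 in siCHD5. Regions 15 and 35 also lacked only a siCHD3 peak, and region 18 lacked only a siMBD3 peak. In siMBD3 region 15 was near that list's threshold, with a fold of 3.64 and a −log10 q of 1.72, and so was region 35 in siMBD2 (fold 3.38, −log10 q 1.66).

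The share of control peaks without a partner was higher in the window than over the whole siNC list in each of the 5 comparisons, which all share the 1 siNC list. A siNC peak is called missing where no peak of the knockdown list overlaps it by 1 bp. Of the 40 siNC peaks, 26 were missing in siCHD3 (65.0%, exact Clopper-Pearson 95% interval 48.3 to 79.4), against 35.4% of all 36270 siNC peaks. In siCHD4, 24 were missing (60.0%, interval 43.3 to 75.1), against 41.5%. In siMBD3, 24 were missing (60.0%, interval 43.3 to 75.1), against 38.5%. In siMBD2, 19 were missing (47.5%, interval 31.5 to 63.9), against 34.9%. In siCHD5, 13 were missing (32.5%, interval 18.6 to 49.1), against 21.5%. Intervals cover counting error only, take neighbouring peaks as independent, and are no test between conditions. The 1928 siNC peaks on the rest of chromosome 5 gave 37.3% in siCHD3, 44.2% in siCHD4, 40.8% in siMBD3, 35.9% in siMBD2 and 21.4% in siCHD5.

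**Figure D3:**
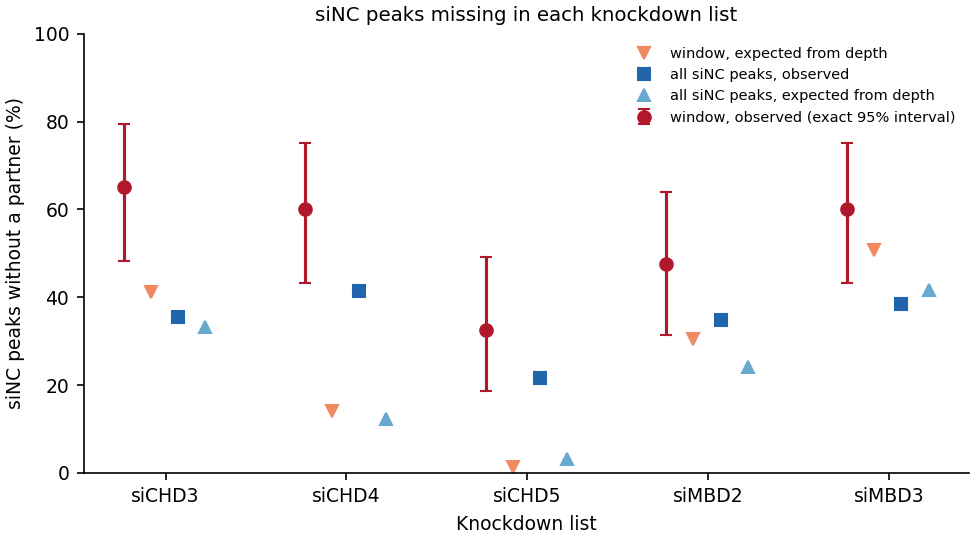
Percent of siNC peaks with no overlapping peak (y axis) in each knockdown list (x axis): circles are the 40 window peaks with exact 95% intervals and squares all siNC peaks. Triangles give the shares expected for both sets when siNC counts are thinned to the depth of each list. The window circle lies above the square of the same list in all 5 lists, from 32.5% in siCHD5 to 65.0% in siCHD3.

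Among 376 consecutive 900 kb stretches of the genome with at least 20 siNC peaks, a share missing as high as the window's was found in 2 for siCHD3 (0.532%), 7 for siCHD4 (1.86%), 11 for siMBD3 (2.93%), 49 for siMBD2 (13%) and 66 for siCHD5 (17.6%). This setting beside other stretches was chosen after the data were seen and is a description.

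Ordered by lowest local background, the lists were siCHD5 (1.95), siCHD4 (1.06), siMBD2 (0.640), siCHD3 (0.445) and siMBD3 (0.374). They lacked 13, 24, 19, 26 and 24 of the window's siNC peaks. Over all siNC peaks they lacked 21.5%, 41.5%, 34.9%, 35.4% and 38.5%, respectively. The part of depth was estimated by a calculation from the siNC counts and was not tested. For each knockdown list the siNC summit counts were thinned to its depth, and the chances of still reaching the smallest −log10 p of that list were added up. On this basis 16.5 of the 40 peaks would lack a call in siCHD3 (41.2%, against 33.1% over all siNC peaks), and 26 did. In siMBD3, 20.3 were expected (50.8%, against 41.6%), and 24 were missing. In siMBD2, 12.2 were expected (30.4%, against 24.2%), and 19 were missing. In siCHD4, 5.59 were expected (14%, against 12.2%), and 24 were missing. In siCHD5, 0.535 was expected (1.34%, against 3.05%), and 13 were missing. The observed number in the window was above the expected one in each list. Over all siNC peaks the observed share was also above the expected one in siCHD4 (41.5% against 12.2%), siCHD5 (21.5% against 3.05%), siMBD2 (34.9% against 24.2%) and siCHD3 (35.4% against 33.1%), and below it in siMBD3 (38.5% against 41.6%). The expected numbers hold no variation between libraries, whose part was not tested. They also take each siNC count as its true level, though peaks enter only where siNC called them. That can set the expected numbers too low and the chances of a call too high. Of the window peaks with a chance over 90% of a call, 10 of 23 were missing in siCHD4, against 31.3% of all siNC peaks with such a chance, and 12 of 39 in siCHD5, against 16.5%. In the shallower lists 1 of 7 was missing in siCHD3, against 11.9%, 1 of 12 in siMBD2, against 10.4%, and 1 of 6 in siMBD3, against 6.98%.

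Missing peaks were weaker in control than kept ones in every list, though the ranges overlap. The median siNC −log10 q was 12.7 for missing and 29.4 for kept peaks in siCHD3, 11.8 and 29.4 in siCHD4, 11.3 and 22.8 in siCHD5, 12.0 and 24.9 in siMBD2, and 11.5 and 27.2 in siMBD3. Of the 30 window peaks with a siNC −log10 q of at least 10, 17 were missing in siCHD3, 15 in siCHD4, 15 in siMBD3, 13 in siMBD2 and 9 in siCHD5. These shares, from 30.0% in siCHD5 to 56.7% in siCHD3, were above those of all siNC peaks past the same limit. The latter were 9.38% in siCHD5, 29.0% in siCHD3, 34.4% in siCHD4, 28.3% in siMBD3 and 23.1% in siMBD2. Strength past the limit was not matched: the median −log10 q of all siNC peaks was 13.8 in the window and 22.3 in the list.

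**Figure D4:**
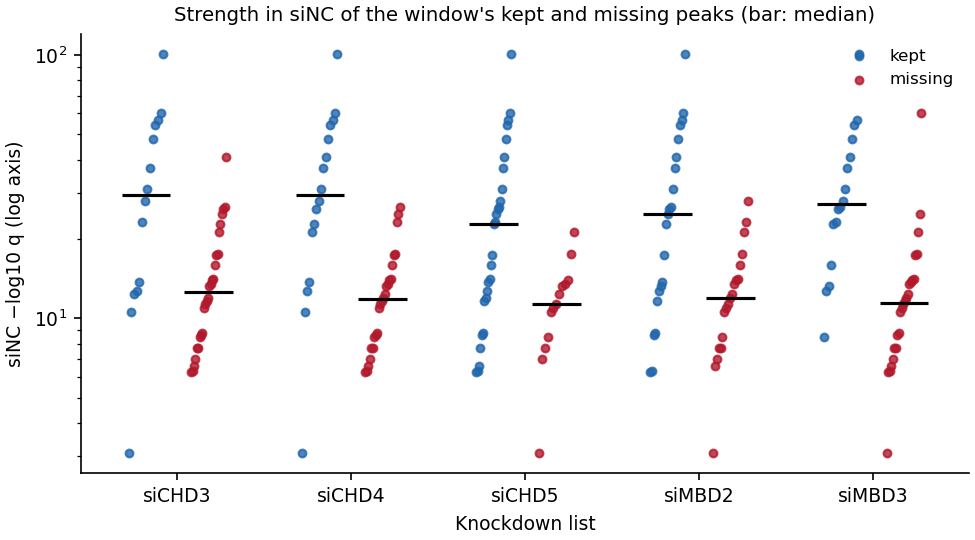
The siNC −log10 q (log y axis) of the 40 window peaks is split for each knockdown list (x axis) into kept peaks, with a partner, and missing ones, with the median as a bar. Missing peaks have medians between 11.3 and 12.7 and kept peaks between 22.8 and 29.4, and the strongest missing peak, at 60.0 in siMBD3, is the second peak of region 24.

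The siCHD3 list kept 14 window peaks. It lacked all 4 siNC peaks of regions 12 to 15 and 9 of the 12 in regions 24 to 38, against 35.4% of all siNC peaks. At the siCHD3 depth 1.51 and 5.13 of them were expected to lack a call. The groups are small and were picked after the positions were seen, here and for the lists below. By −log10 q, the strongest missing peak was region 43 (41.1), which had a chance of 95.5% of a call at the siCHD3 depth. By fold it was region 10 (9.29), which had a chance of 84.3%.

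The siCHD4 list kept 16 peaks, of which 6 lay in regions 39 to 47, where 25.0% were missing. It lacked 6 of the 7 siNC peaks of regions 16 to 23 (85.7%), against 41.5% of all siNC peaks. At the siCHD4 depth 0.375 and 0.687 peaks of these groups were expected to lack a call. The leading missing peaks were region 10 (fold 9.29, −log10 q 24.9) and region 12 (chr5:140420739-140421050, fold 5.05, −log10 q 26.5). Their computed chances at the siCHD4 depth were 99.4% and 99.9%. Of all siNC peaks with a chance over 90% there, 31.3% were missing. Region 10 was missing in siCHD4, though the siCHD4 list had a peak of its own 431 bp beyond it, region 11 (chr5:140249084-140249317, fold 4.85).

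The siCHD5 list kept 27 peaks, the most of the 5. It kept all 4 peaks of regions 12 to 15 and lacked 5 of the 9 in regions 1 to 11 (55.6%), against 21.5% of all siNC peaks. At the siCHD5 depth 0.424 of those 9 were expected to lack a call. The missing peaks of highest strength were region 25 (chr5:140705636-140705858, fold 6.35, −log10 q 21.2) and region 8 (chr5:140221274-140221524, fold 7.83, −log10 q 17.6). Both had a rounded computed chance of 100% at the siCHD5 depth. Of all siNC peaks with a chance over 90% there, 16.5% were missing.

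The siMBD2 list kept 21 peaks, 8 of them among the 12 of regions 24 to 38. The share missing in that group, 33.3%, was near the 34.9% of all siNC peaks. Its strongest missing peak was the first peak of region 24 by −log10 q (27.9, with a fold of 7.03) and region 8 by fold (7.83), with chances of 93.9% and 80.8% at the siMBD2 depth. Region 39 (chr5:140891900-140892266) was called with the second highest fold of the window in siMBD2, 9.73, and with 4.94 in siNC and 5.52 in siCHD5. It had no peak in siCHD3, siCHD4 or siMBD3.

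The siMBD3 list kept 16 peaks, 5 of them in regions 39 to 47. The share missing in that group, 37.5%, was near the 38.5% of all siNC peaks. It lacked the siNC peak of highest fold in the window, the second peak of region 24 (fold 9.44, −log10 q 60.0), which had a chance of 97.3% at the siMBD3 depth, while the first peak of region 24 was kept. Region 10, with a chance of 72.4%, was missing as well.

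The number of lists sharing a region also differed from that of all regions. In the window 11 of 47 regions (23.4%) were called in 3 lists, against 10.2% of all regions, and 13 (27.7%) in 1 list, against 31.6%. Regions called in siNC, siCHD5 and siMBD2 together and in no other list numbered 7 of 47, against 2.16% of all regions. They were regions 10, 21, 28, 30, 34, 36 and 39, of which 4 lie among regions 24 to 38. These 7 are part of the 11 regions called in 3 lists, so both shares rest partly on the same regions. This combination was picked after the counts of all combinations were seen.

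Control peaks with no partner in any knockdown list numbered 7. They were region 6 (chr5:140213623-140213890, fold 4.83), region 8 (7.83), region 20 (chr5:140593342-140593560, fold 5.03), region 22 (chr5:140613780-140613976, fold 5.71), region 23 (chr5:140624730-140625053, fold 6.11), region 27 (chr5:140718132-140718385, fold 4.37) and region 47 (5.69). They make up 7 of the 47 regions, while 5.30% of all regions were called in siNC alone. Their siNC −log10 q ran from 7.03 to 17.6 and their summit counts from 21 to 38 fragments. The 7 siNC peaks with a partner in all 5 lists had −log10 q from 12.7 to 101 and 39 to 172 fragments. Regions 20, 22 and 23 are 3 of the last 4 siNC peaks before the 73.3 kb gap.

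Peaks called after knockdown and not in siNC were few, from 0 to 4 per list. A knockdown peak is called added where no siNC peak overlaps it by 1 bp. There were 4 in siCHD3 (23.5% of 17, interval 6.81 to 49.9, against 32.6% of the whole list), 3 in siCHD4 (16.7% of 18, interval 3.58 to 41.4, against 16.8%) and 3 in siCHD5 (9.68% of 31, interval 2.04 to 25.8, against 9.41%). The siMBD2 list had 0 of 21 (upper limit 16.1%, against 9.30%) and the siMBD3 list 0 of 16 (upper limit 20.6%, against 13.4%). In all lists with added peaks these shares were near or below the whole list's. The strongest by fold was region 40 (chr5:140894930-140895443), with a fold of 7.61 in siCHD3 and 4.26 in siCHD4. Region 2 (chr5:140111036-140111252, fold 6.23) was called in siCHD3 alone and region 33 (chr5:140771920-140772212, fold 5.74) in siCHD5 alone. Region 38 (chr5:140809737-140810177) was called in siCHD4 (4.33) and siCHD5 (4.74). No region absent from siNC was called in 3 or more knockdown lists.

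Where a control peak was kept, its summit mostly lay close to the control one. Within 50 bp lay 12 of 14 summits in siCHD3, 15 of 16 in siCHD4, 26 of 27 in siCHD5 and 15 of 16 in siMBD3. The median distance from the leading siNC summit to the leading summit of the overlapping knockdown peak was 10 bp in siCHD5 (27 peaks), 13 bp in siCHD3 (14 peaks), 14.5 bp in siMBD3 (16 peaks), 15.5 bp in siCHD4 (16 peaks) and 16 bp in siMBD2 (21 peaks). All 21 siMBD2 summits lay within 50 bp. The farthest were 972 bp in siCHD3 and 950 bp in siCHD4, both in region 24, where each of these lists also had a further summit within 50 bp of the siNC one.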

How the data were processed

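CTCF ChIP-seq peak lists of 6 conditions were used, each called by the authors on 3 replicates together against input, per the names in the files. The build was hg19, and the tools named, per the submitters' processing notes, were MACS2 2.1.2, deepTools 3.5.0, bedtools 2.25.0, SAMtools 1.9, Bowtie2 2.3.4 and FastQC 0.11.7, with roles and settings not given in the sources used here. Deposited values per peak are a linear fold over local background, −log10 p, −log10 q and a display score, which was not used, and lines of a peak with several summits were joined under the summit of highest fold.

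Coordinates were written 1-based. Summit pileup and background were solved from the authors' fold (pileup plus 1 over background plus 1) and p under a Poisson model, to within 0.01%; all peaks of the window were solved. The chance of a call at lower depth was computed by binomial thinning. Scripts were tested on simulated data and used Python 3.11.15, numpy 2.4.6, scipy 1.17.1, pandas 2.3.3 and matplotlib 3.10.9. Intervals are exact Clopper-Pearson 95% intervals.

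The locus, its regions and the gene lists were chosen with earlier results of these data known. Regions named by rule were those in all 6 lists, the 10 siNC peaks of highest fold, siNC peaks without a partner, regions in 3 or more knockdown lists and not in siNC, the 3 highest folds per knockdown list and the peaks nearest the window's edges; others were chosen after their values were seen. An hg19 genome and annotation were not used here, so the planned gene annotation and motif search at summits were not run. Other q limits, overlap rules, list lengths and window membership were tried.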

Additional observations from a re-analysis of the deposited data

How the results depend on the processing

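The share of siNC peaks missing was above the whole-list share in 40 of 40 combinations of setting and knockdown list. These combinations reuse the same siNC peaks and are not independent. None matched the window's peaks to the others by their strength in siNC, where the median −log10 q was 13.8 in the window and 22.3 in the list. Of those 40 counts, 33 stayed within 1.5 times the reported one. Lists of equal length, taking the peaks of smallest p, left 23 siNC peaks in the window. Of these, 13 were missing in siCHD3 (56.5%, against 30.3% of all siNC peaks at this setting) and 10 in siCHD4 (43.5%, against 30.5%). In siMBD2, 9 were missing (39.1%, against 19.2%), and 9 in siMBD3 (39.1%, against 24.2%). Another setting, chosen after seeing the data, asked −log10 q of at least 10 of the searched-for peak only, which left 30 window peaks. Missing were 17 in siCHD3 (56.7%, against 29.0%), 15 in siCHD4 (50.0%, against 34.4%) and 15 in siMBD3 (50.0%, against 28.3%).

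Counts of added peaks moved more often, in 13 of 40 combinations. Shares of the whole knockdown list at the same setting follow each count. Asking both lists for −log10 q of 5 or more left 2 of 12 in siCHD3 (16.7%, against 18.9%) and 1 of 12 in siCHD4 (8.33%, against 8.67%). At 10 in both lists there were 0 of 4 in siCHD3 (against 18.3%) and 0 of 6 in siCHD4 (against 7.24%). At 10 in the searched-for list only there were 0 of 4 in siCHD3 (against 8.92%), 0 of 6 in siCHD4 (against 2.22%) and 0 of 18 in siCHD5 (against 3.54%). With lists of equal length there were 6 of 18 in siCHD4 (33.3%, against 30.5%), 6 of 20 in siMBD2 (30.0%, against 18.9%) and 2 of 16 in siMBD3 (12.5%, against 23.9%). Reciprocal overlap of 50% gave 5 of 31 in siCHD5 (16.1%, against 11.1%) and 1 of 16 in siMBD3 (6.25%, against 18.8%). Summits within 100 bp gave 5 of 31 in siCHD5 (16.1%, against 10.6%).

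At −log10 q of at least 10 the window held 31 regions, 2 of them in all 6 lists, with 11 peaks in siMBD2, 7 in siMBD3, 4 in siCHD3, 6 in siCHD4 and 18 in siCHD5. These settings leave fewer peaks by construction. The other alternatives kept each count within 1.5 times. The 5 groups of regions, the 900 kb stretches with at least 20 siNC peaks and the 10-base promoter stretches were also chosen after seeing the data. So was the combination of siNC, siCHD5 and siMBD2.

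No paired analysis was possible because the authors called the 3 replicates of each condition together, and leaving out a replicate was not run for the same reason. Depth is inferred from the lowest local background and not from read totals, and in any of the 5 knockdown lists a peak that is not called is not shown to be absent.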
